A study of Mus musculus with 6 samples.

Results

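The superoxide dismutases, catalase and the peroxiredoxins are the enzymes that take superoxide and hydrogen peroxide out of the cell, and their transcripts were examined in the cochlea of *Cmah*-null mice. The 10 genes were *Sod1*, *Sod2*, *Sod3*, *Cat* and *Prdx1* to *Prdx6*, and they were taken as every probe whose gene symbol equalled 1 of these names. This gave 15 probes among the 25697 probes of the array, with over 1 probe for 4 of the genes. All 15 probes were detected on at least 1 array, 13 of them on all 6 arrays, and each gene had at least 1 probe detected on all 6.

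Total RNA of cochlear tissue from C57BL/6 mice (C57BL/6J in the methods) aged 12 months was hybridized to Illumina MouseRef-8 v2 bead arrays, 1 array per sample, with 3 samples recorded as Wild type (WT) and 3 as *Cmah*-null. *Cmah* encodes the hydroxylase that makes the sialic acid Neu5Gc, and *Cmah*-null mice carry a germline disruption, so every cell of the tissue lacks the enzyme. The study asked which genes differ between the genotypes, with hearing loss and oxidative damage among its interests. The sex of the mice is not given in the labels, and the p-values weigh each difference only against the spread between these samples.

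Superoxide leaks from the mitochondrial respiratory chain and is made by NADPH oxidases, and a dismutase turns it into hydrogen peroxide. Catalase in peroxisomes and the peroxiredoxins in the other compartments reduce that peroxide, the typical peroxiredoxins with electrons from thioredoxin. *Sod1* is cytosolic, *Sod2* works in the mitochondrial matrix and *Sod3* is secreted. *Prdx1*, *Prdx2* and *Prdx6* are cytosolic, *Prdx3* is mitochondrial, *Prdx4* resides in the endoplasmic reticulum, and *Prdx5* is found in mitochondria as well as in other places. In the inner ear these enzymes are known for their part in the response to noise, ototoxic drugs and age.

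Each array detected 13873 to 15223 probes, taking a detection p under 0.05. *Cmah*-null replicate 3 stood apart, since the SD of its log2 difference from each other array lay between 0.763 and 0.851 over the 12410 probes detected on all 6 arrays. *Cmah*-null replicates 1 and 2 were close to each other, with an SD of 0.138, and the remaining pairs lay between 0.391 and 0.564. The *Cmah* probe (ILMN_2606825) was detected on 1 WT array and 2 *Cmah*-null arrays, so it could not check the genotypes. Of the defining hair cell markers, *Pou4f3*, *Atoh1* and *Slc26a5* were detected on no array, and 5 of 11 hair cell markers were detected on all 6. Markers of skeletal muscle, brown fat, blood and epidermis were detected as well, and in such bulk samples fewer cells of a type and less RNA per cell cannot be told apart.

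Several members were read by more than 1 probe, and the first 30 of the 50 bases of the probes that the results turn on are given here, 5′ to 3′ as deposited, to show which stretch of the transcript each value comes from. *Sod2* was read by 1 probe, *Prdx2* by 3 and *Prdx5* by 2 probes at separate places, and *Prdx6* by 2 probes that overlap.
Sod2, ILMN_2650280, transcript position 803: gcactatgactggggtgctgtagtctttat
Prdx2, ILMN_2773554, transcript position 524: aagggtgtccttcgccagatcacagtcaat
Prdx2, ILMN_2638354, transcript position 1019: gcttgtgcaactgactctgtagttatgcct
Prdx2, ILMN_1242829, transcript position 1091: ctgagcatggtgggacacagtgagaccaaa
Prdx5, ILMN_2637233, transcript position 388: ctgtctgagcgttaatgacgtctttgtgat
Prdx5, ILMN_1239765, transcript position 542: cgtcggctgaaaaggttctccatggtgata
Prdx6, ILMN_2623947, transcript position 2241: ccccaggggctcagattacaaatgttacca
Prdx6, ILMN_2623951, transcript position 2243: ccaggggctcagattacaaatgttaccatc
The *Prdx6* probes share 48 of their 50 bases at an offset of 2, so they are a repeat measurement of 1 site and not independent of each other. By the RefSeq gene table (assembly GRCm38.p6), *Sod1* lies on chromosome 16, *Sod2* on 17, *Sod3* on 5, *Cat* on 2, *Prdx1* on 4, *Prdx2* on 8, *Prdx3* and *Prdx5* on 19, *Prdx4* on X and *Prdx6* on 1.

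No member differed between the genotypes at an adjusted p under 0.05 in limma, nor did any probe of the array (0% of probes, smallest adjusted p 0.2497, with 2199 probes at an unadjusted p under 0.05). By the brightest probe of each gene, 8 of the 10 members had a lower mean in *Cmah*-null mice and 2 a higher mean, with a median log2 fold change of -0.57 beside 0.00 for all probes. Without *Cmah*-null replicate 3 that median was -0.09, and with the mean over all probes of a gene detected on 6 arrays it was -0.33. *Sod2* alone among the members was lower by 1.5-fold or more with an unadjusted p below 0.05, and none was higher. Of all probes, 1.41% were lower and 1.3% higher by the same rule. By the brightest probe, *Sod2* and *Prdx5* were the members for which every *Cmah*-null array lay below every WT array, which held for 7.33% of all probes. The groups overlapped for the other *Prdx5* probe. The brighter *Prdx6* probe lay above every WT array on every *Cmah*-null array, as did 9.11% of all probes, but the groups overlapped for the other *Prdx6* probe.

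**Figure D1:**
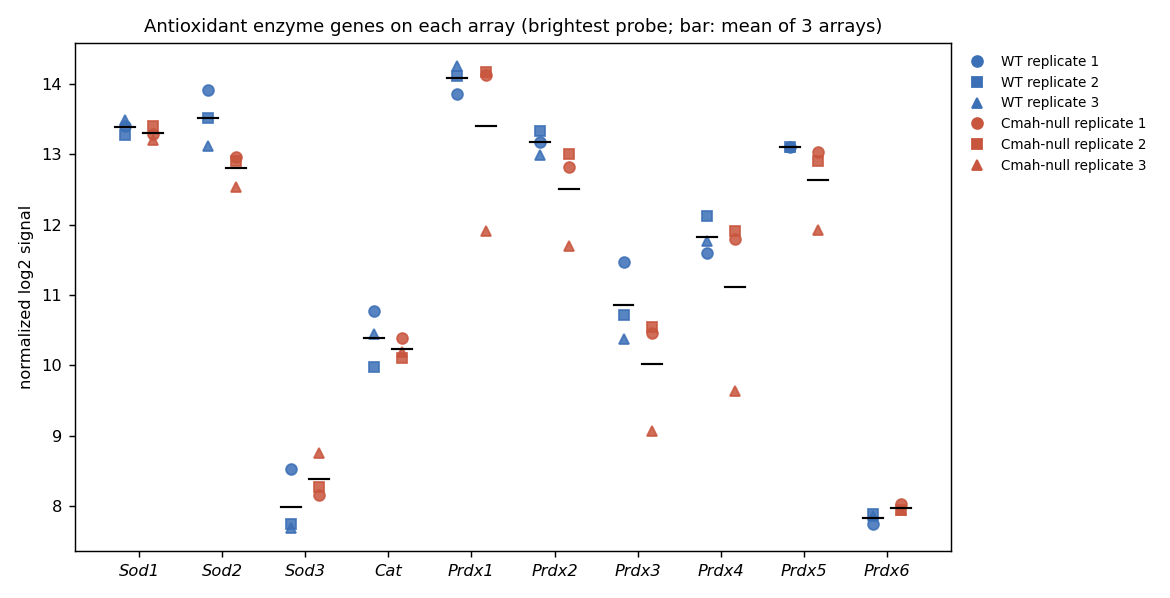
Normalized log2 signal (vertical axis) of the brightest probe of each of the 10 genes (horizontal axis) on the 3 WT arrays (blue) and 3 *Cmah*-null arrays (red), with marker shape for the replicate and a bar for the mean of 3. *Sod2* is lower on every *Cmah*-null array, while the low points of *Prdx1* to *Prdx5* are those of *Cmah*-null replicate 3. Signals of different probes are not comparable with each other.

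Of the dismutases, *Sod2* had the lower signal in *Cmah*-null mice, *Sod1* was nearly level and *Sod3* tended the other way. The normalized log2 signal of *Sod2*, the manganese enzyme of the mitochondrial matrix, was 13.91, 13.52 and 13.12 in WT replicates 1, 2 and 3, and 12.97, 12.90 and 12.53 in *Cmah*-null replicates 1, 2 and 3. The groups did not overlap, but the gap between WT replicate 3 and *Cmah*-null replicate 1 was smaller than the spread among the WT arrays. The means were 13.52 ± 0.40 (SD, n = 3) and 12.80 ± 0.24 (SD, n = 3), a log2 fold change of -0.72 (SE 0.23), or 1.64-fold lower. The unadjusted p in limma was 0.02164 and the adjusted p 0.529. Without *Cmah*-null replicate 3 the log2 fold change was -0.58 (SE 0.23), with an unadjusted limma p of 0.05139. The value differed between normalizations. With neqc, which subtracts background before the quantile step, the log2 fold change was -0.73 (SE 0.24) and the call held. As raw signals, the *Sod2* probe gave 16678, 9184 and 6215 for WT mice but 11514, 9870 and 5585 for *Cmah*-null mice, so the groups overlapped. With median scaling in place of quantile normalization, which moved the median log2 fold change of the detected probes from 0.03 to 0.30, *Sod2* had a log2 fold change of -0.22, or -0.49 relative to that shift, and it was no longer called. Leaving out WT replicate 1 (log2 fold change -0.52) or WT replicate 2 (-0.72, with an unadjusted limma p of 0.05786) also ended the call. Without *Cmah*-null replicate 3 no member was called lower, beside 1.82% of all probes.

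*Sod1*, the copper and zinc enzyme of the cytosol, had a log2 signal of 13.41, 13.28 and 13.49 in WT mice and 13.29, 13.40 and 13.20 in *Cmah*-null mice. The groups overlapped, and the log2 fold change was -0.09 (SE 0.09, limma adjusted p 0.798). It was 0.41 with median scaling, or 0.14 relative to the median shift of the detected probes.

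*Sod3*, the dismutase of the extracellular matrix, was dim but detected on all arrays, with a log2 signal of 8.53, 7.74 and 7.69 in WT mice and 8.15, 8.27 and 8.76 in *Cmah*-null mice. WT replicate 1 overlapped the *Cmah*-null arrays and the other two WT arrays lay below them. The log2 fold change was 0.41 (SE 0.28, limma adjusted p 0.720). Leaving out WT replicate 1 raised it to 0.68 and brought it past 1.5-fold with an unadjusted p under 0.05. With neqc it was 0.84 (SE 0.52).

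Catalase did not separate the genotypes. *Cat*, which breaks down hydrogen peroxide in peroxisomes, had a log2 signal of 10.78, 9.97 and 10.44 in WT mice and 10.39, 10.11 and 10.19 in *Cmah*-null mice. All 3 *Cmah*-null values lay inside the WT range. The log2 fold change was -0.17 (SE 0.22, limma adjusted p 0.853), and it turned to 0.03 without WT replicate 1 and to 0.26 with median scaling (-0.01 relative to its shift).

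Among the peroxiredoxins, *Prdx1* to *Prdx5* had lower means and *Prdx6* a higher mean in *Cmah*-null mice. *Prdx1* to *Prdx5* each had their lowest value on *Cmah*-null replicate 3, and *Prdx1* to *Prdx4* lay there more than 1 log2 unit below the lowest of the other 5 arrays. This held for 4 of the 10 members on that array and for none on the other arrays. Of all probes, 2.49% were lowest there by over 1 log2 unit, and of the probes detected on all 6 arrays 5.08%. On each other array at most 0.0623% of all probes stood out in this way.

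*Prdx1*, an abundant cytosolic peroxiredoxin, had a log2 signal of 13.86, 14.12 and 14.26 in WT mice and 14.13, 14.17 and 11.91 in *Cmah*-null mice (ILMN_1223738). *Cmah*-null replicates 1 and 2 lay within the WT range and replicate 3 lay far below them, at a log2 difference of -1.95 from the lowest other array. The log2 fold change was -0.67 (SE 0.63, limma adjusted p 0.788) with all arrays and 0.07 (SE 0.13) without replicate 3. A second *Prdx1* probe (ILMN_2989706) was detected on 2 WT arrays and no *Cmah*-null array, too dim to set against it.

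*Prdx4*, the form of the endoplasmic reticulum, followed the same course with 11.60, 12.12 and 11.77 in WT mice and 11.79, 11.91 and 9.64 in *Cmah*-null mice. Again replicates 1 and 2 lay within the WT range. Its log2 fold change was -0.71 (SE 0.63, limma adjusted p 0.776), and 0.02 (SE 0.17) without replicate 3. Over the 6 arrays *Prdx1* and *Prdx4* had a Pearson correlation of 0.98, which describes 6 points that share normalization and of which 1 lies far out.

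*Prdx2*, a cytosolic form abundant in red cells and neurons, was read by 3 probes that differed in size. The brightest, at position 524, had a log2 signal of 13.18, 13.33 and 12.99 in WT mice and 12.82, 13.01 and 11.70 in *Cmah*-null mice. Only *Cmah*-null replicate 2 lay within the WT range, and the log2 fold change was -0.65 (SE 0.35, limma adjusted p 0.664), or -0.25 (SE 0.13) without replicate 3. The probe at position 1019 gave -0.10 (SE 0.31), which turned to 0.26 without replicate 3. The probe at position 1091 gave -0.20 (SE 0.14). All 3 probes were lowest on *Cmah*-null replicate 3, at log2 differences of -1.11, -0.66 and -0.39 from the lowest other array in the same order, so the probes shared that array's low value but not the difference on the other 2 *Cmah*-null arrays. The markers of blood and marrow, 13 of 15 on the array, had a mean log2 signal of 11.38 to 12.57 in WT and 11.64 to 12.05 in *Cmah*-null mice. Of these, *Epb4.2* was detected on no array, and the summed normalized signal ran from 170000 to 223305 in WT and from 165120 to 186073 in *Cmah*-null mice. Their part in the *Prdx2* values was not tested.

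*Prdx3*, which removes most of the peroxide of the mitochondrial matrix and is reduced by the mitochondrial thioredoxin *Txn2*, had the largest log2 fold change of the members at -0.83 (SE 0.48, limma adjusted p 0.680). Its log2 signal was 11.47, 10.72 and 10.38 in WT mice and 10.46, 10.54 and 9.07 in *Cmah*-null mice. WT replicate 3 lay below *Cmah*-null replicates 1 and 2, so the groups overlapped, and without *Cmah*-null replicate 3 the value was -0.36 (SE 0.32).

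*Prdx5*, which also reduces peroxynitrite, was the most even member among WT mice by its brightest probe (ILMN_1239765), with 13.10, 13.11 and 13.10. The *Cmah*-null arrays read 13.04, 12.90 and 11.93, all below the WT arrays, with replicate 3 at a log2 difference of -0.97 from the lowest other array. The log2 fold change was -0.48 (SE 0.30, limma adjusted p 0.696), and -0.13 (SE 0.08) without replicate 3. The other probe (ILMN_2637233) was less even, with 10.70, 10.33 and 10.01 in WT mice. It gave -0.20 (SE 0.34), turned to 0.15 without replicate 3 and overlapped between the groups.

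*Prdx6*, which is reduced by glutathione and not by thioredoxin, was dim. Its brighter probe had a log2 signal of 7.74, 7.89 and 7.86 in WT mice and 8.03, 7.94 and 7.94 in *Cmah*-null mice. The groups did not overlap, and *Cmah*-null mice were higher by a log2 fold change of 0.14 (SE 0.08, limma adjusted p 0.664). With median scaling it was 0.20, or -0.07 relative to the median shift of the detected probes, which this dim probe hardly shared. The overlapping probe was detected on 1 WT and 2 *Cmah*-null arrays and gave 0.21 (SE 0.14). With that probe WT replicate 1 (7.56) lay above *Cmah*-null replicate 3 (7.37), so the groups overlapped.

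**Figure D2:**
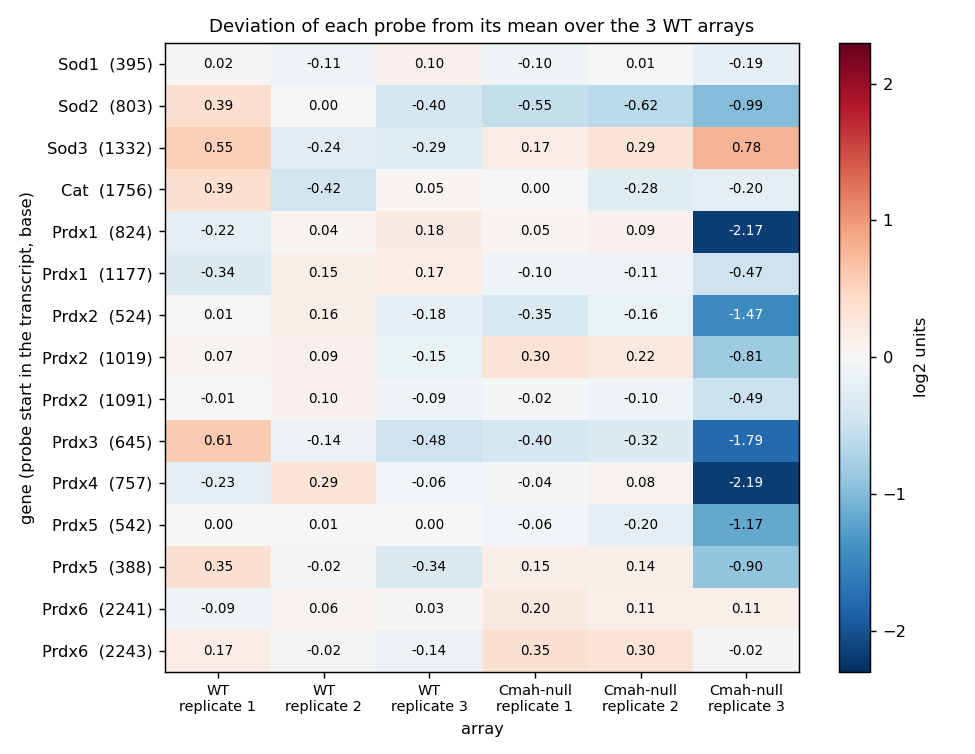
Deviation of every probe of the 10 genes (rows, with the probe's start in the transcript) from its mean over the 3 WT arrays, in log2 units, on each of the 6 arrays (columns). The column of *Cmah*-null replicate 3 holds the deep negative values of *Prdx1* to *Prdx5*, and *Sod2* is negative on all 3 *Cmah*-null arrays.

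By compartment, the mitochondrial members *Sod2*, *Prdx3* and *Prdx5* had a median log2 fold change of -0.72, and 3 of 3 were lower in *Cmah*-null mice. The cytosolic and extracellular members *Sod1*, *Sod3*, *Prdx1*, *Prdx2* and *Prdx6* had a median of -0.09, and 3 of 5 were lower. The difference between these medians was -0.62, and with *Prdx5* left out of the mitochondrial members it was -0.68. Without *Cmah*-null replicate 3 the medians were -0.36 and 0.07, and the difference was -0.43. As medians of the deviation from the WT means, the difference on the single arrays was 0.38, -0.04 and -0.43 in WT replicates 1, 2 and 3 and -0.46, -0.40 and -0.98 in *Cmah*-null replicates 1, 2 and 3. WT replicate 3 lay at the level of *Cmah*-null replicates 1 and 2, so the groups overlapped, and only replicate 3 lay beyond the WT range by more than 0.1. *Cat* in peroxisomes (log2 fold change -0.17) and *Prdx4* in the endoplasmic reticulum (-0.71) stood outside this comparison. The difference is smaller without *Sod3*, since the 4 cytosolic members alone had a median of -0.37, or 0.01 without *Cmah*-null replicate 3. *Sod3* and *Prdx6*, the members with a higher mean, were dim, while *Prdx1* (-0.67) and *Prdx2* (-0.65) lay near *Sod2* (-0.72).

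**Figure D3:**
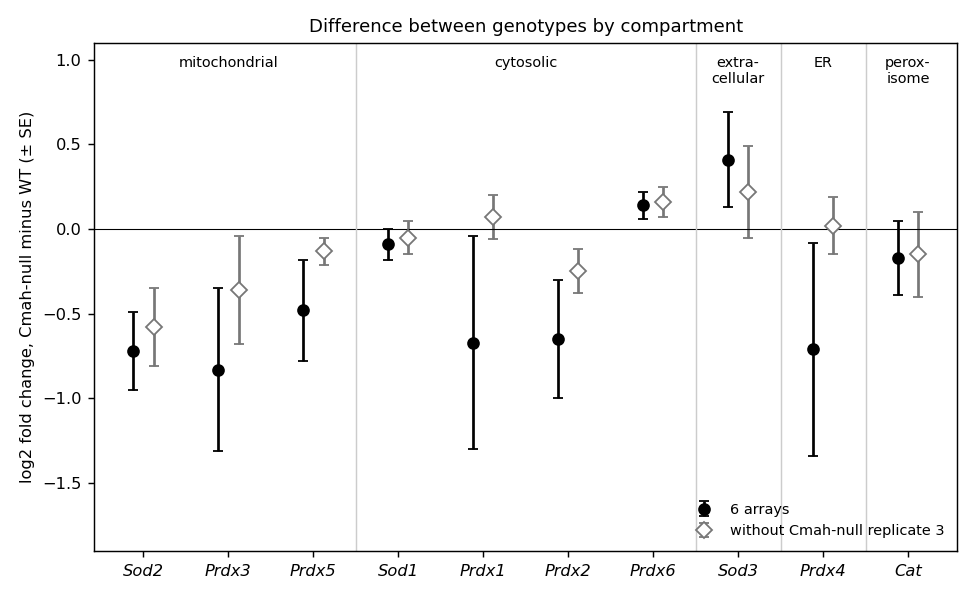
Log2 fold change of *Cmah*-null minus WT (vertical axis, ± SE from limma) of the brightest probe of each gene, grouped by compartment, with all 6 arrays (filled circles) and without *Cmah*-null replicate 3 (open diamonds). Without that array *Prdx1* and *Prdx4* move to 0.07 and 0.02, while *Sod2* stays at -0.58.

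The arrays also fell into 2 sets by the median number of beads per probe, 32 to 34 on WT replicate 1 and *Cmah*-null replicates 1 and 2 and 38 to 39 on the other 3. In each set 1 genotype was held by a single array, WT replicate 1 in the set with fewer beads and *Cmah*-null replicate 3 in the other. WT replicate 1 had the highest signal of *Sod2* (13.91) and *Prdx3* (11.47) of all arrays. Within the arrays with fewer beads *Sod2* had a log2 difference of -0.98 and within those with more beads -0.79. With the bead set as a block its log2 fold change was -0.88 (SE 0.14, limma adjusted p 0.114). *Prdx3* had -0.97 and -1.48 within the sets, and -1.22 (SE 0.16, limma adjusted p 0.104) with the block. For *Prdx1* the sets gave 0.29 and -2.28 and for *Prdx4* 0.26 and -2.31, opposite in direction, and *Cmah*-null replicate 3 alone stood for its genotype in the set with more beads. *Sod3* also differed in direction, with -0.32 and 1.05. *Prdx2* had -0.26 and -1.46, and *Prdx5* -0.13 and -1.17. With the bead set as a block, *Sod2*, *Prdx2*, *Prdx3* and *Prdx5* were lower at 1.5-fold with an unadjusted p under 0.05, beside 3.4% of all probes under that block.

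Other signals were also lower in *Cmah*-null mice. The 75 respiratory chain subunits on the array were picked by symbol, with the *Atp5* genes of the ATP synthase counted among them. They had a mean log2 signal of 12.12, 12.08 and 11.86 in WT mice and 11.61, 11.61 and 11.10 in *Cmah*-null mice, without overlap. *Cox7b2*, *Cox8c*, *Ndufs1* and *Uqcrq* were detected on no array. Of the 75 subunits 65 were lower in *Cmah*-null mice, 17 of these by the rule of 1.5-fold and p, beside 1.41% of all probes. The largest decreases were those of *Cox7a1* (log2 fold change -1.54), *Cox8b* (-1.44), *Ndufb5* (-1.40) and *Ndufb9* (-1.32). Of these, *Cox7a1* and *Cox8b* fell from WT replicate 1 to WT replicate 3 as *Sod2* did. *Ndufb5* (10.76, 11.69 and 11.33) and *Ndufb9* (10.53, 11.28 and 10.64) had their lowest WT value on WT replicate 1. The other 10 subunits were higher, of which *Cox6b2* (log2 fold change 0.86, SE 0.18) passed the same rule. The median log2 fold change of the subunits was -0.64, or -0.35 without *Cmah*-null replicate 3. Without that array 19 subunits were called lower, beside 1.82% of all probes. Markers of brown fat, a tissue dense in mitochondria, were detected in samples of both genotypes. The 9 markers had a mean log2 signal of 10.80 to 11.07 in WT and 9.77 to 10.06 in *Cmah*-null mice, with *Dio2* detected on no array. Their summed normalized signal ran from 42772 to 65727 in WT and from 16553 to 25630 in *Cmah*-null mice, again without overlap. All 9 had a lower mean, 4 of them at 1.5-fold with an unadjusted p under 0.05. *Cox8b*, 1 of these 4, is also counted among the respiratory chain subunits. Without *Cmah*-null replicate 3, 5 markers were called lower, and the median log2 fold change went from -0.69 to -0.84. The groups overlapped for *Cpt1b*, *Otop1*, *Elovl3*, *Slc27a2* and *Dio2*. On *Cmah*-null replicate 3, *Cpt1b* (12.85) lay above every WT array. *Ucp1*, the uncoupling protein that defines this tissue, had a log2 signal of 13.63, 12.48 and 11.79 in WT and 10.82, 10.84 and 9.90 in *Cmah*-null mice. The WT arrays stood in the same order for *Ucp1* as for *Sod2* and *Prdx3*, and so they did for *Cidea*, *Cox8b*, *Cpt1b* and *Otop1*. *Elovl3* (7.56, 8.01 and 8.77 in WT mice) and *Slc27a2* (9.05, 9.15 and 9.69) ran in the reverse order, and *Ppargc1a* followed neither. *Dio2* was below detection, so its order has no meaning. The 15 skeletal muscle markers had a summed signal of 284458 to 476793 in WT and 295008 to 314158 in *Cmah*-null mice, with *Myh7* detected on no array, and WT replicate 3 lay at the *Cmah*-null level. The part of brown fat and muscle in the *Sod2* and *Prdx3* values was not tested.

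**Figure D4:**
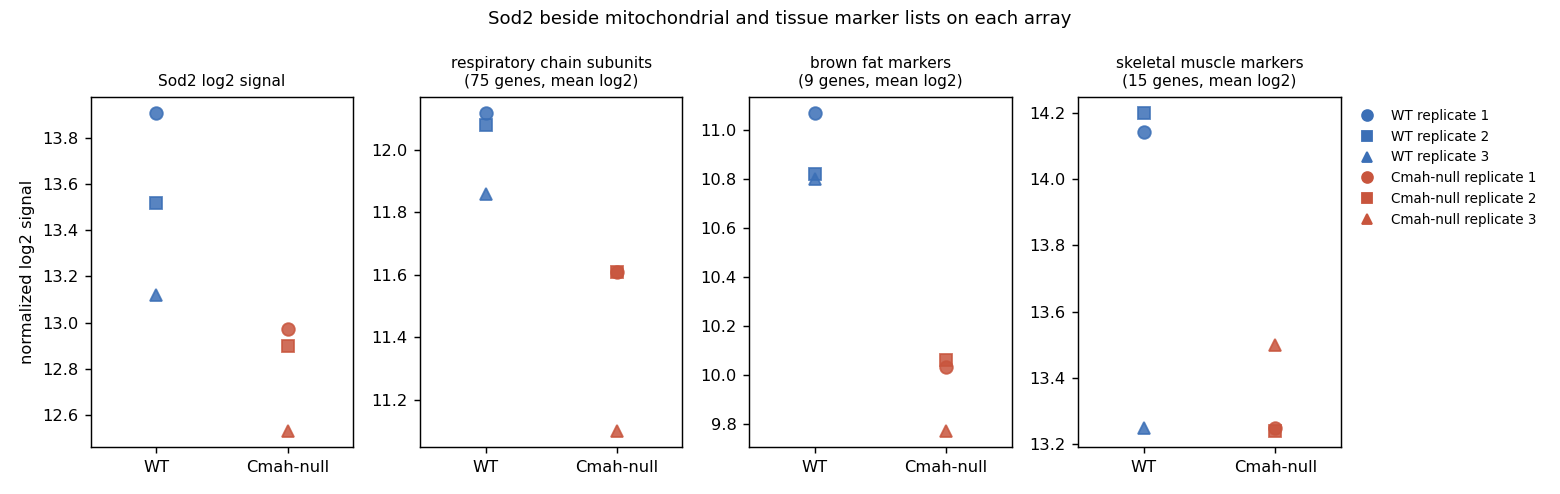
Normalized log2 signal of *Sod2* and mean log2 signal of the respiratory chain subunits, brown fat markers and skeletal muscle markers (panels, each with its own vertical axis) on the WT arrays (blue) and *Cmah*-null arrays (red). The groups do not overlap in the first 3 panels, and in the muscle panel WT replicate 3 lies among the *Cmah*-null arrays.

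The genes whose arrays followed *Sod2* most closely, among 9906 genes with a probe detected on all arrays, were *Cd59a*, an inhibitor of the complement attack complex (Pearson r = 0.9986 over 6 arrays), *Ak3*, the adenylate kinase of the mitochondrial matrix (0.9966), and *Rasl2-9* (0.9936). For *Prdx3* they were *Cog4* (0.9978), *Ube1c* (0.9973) and *Gstm4* (0.9956). For *Cat* they were *Lztr1* (0.9809), LOC100048331 (0.9597) and *Mars2* (0.9339). With 6 points sharing 1 normalization such values only rank likeness.

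In the thioredoxin system, 0 of 10 genes were called by the rule of 1.5-fold and p, and the median log2 fold change was -0.12. Without *Cmah*-null replicate 3 it was -0.14, beside -0.09 for the members. *Txn1*, the cytosolic thioredoxin, named after its values were seen, had a log2 fold change of -0.71 (SE 0.36, limma adjusted p 0.642), and -0.87 without that array. *Srxn1*, the sulfiredoxin that restores overoxidized peroxiredoxins, had a log2 fold change of -0.12 (SE 0.26), *Txn2* -0.13 (SE 0.19) and its reductase *Txnrd2* -0.35 (SE 0.23), each with overlapping groups. Among 8 genes of dismutase maturation and activation none was called, and the median was -0.10, or 0.05 without *Cmah*-null replicate 3. *Ccs*, the chaperone that loads copper into the *Sod1* product, had a log2 signal of 11.79, 11.77 and 11.77 in WT and 11.62, 11.67 and 11.63 in *Cmah*-null mice. Its groups did not overlap, but the log2 fold change was only -0.14 (SE 0.06, limma adjusted p 0.627). *Sirt3*, the mitochondrial deacetylase that activates the *Sod2* product, had 11.75, 11.70 and 11.52 in WT and 11.20, 11.12 and 11.07 in *Cmah*-null mice. Its groups did not overlap, and the log2 fold change was -0.53 (SE 0.09, limma p 0.001315, adjusted p 0.396), below 1.5-fold, and -0.50 without *Cmah*-null replicate 3.

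The glutathione peroxidases, the other enzymes that reduce peroxide, went in both directions, with 1 of 8 lower and 1 higher by the same rule. *Gpx3*, the secreted form, had a log2 signal of 14.45, 14.35 and 14.45 in WT and 14.91, 14.94 and 15.35 in *Cmah*-null mice, higher on every *Cmah*-null array (log2 fold change 0.65, SE 0.14, limma adjusted p 0.397). It was 0.51, below 1.5-fold, without *Cmah*-null replicate 3. *Gpx2*, named after its values were seen, had 0.36 (SE 0.61), and 1.06 without that array. *Gpx4*, which reduces lipid peroxides, had 11.75, 11.61 and 11.60 in WT and 10.82, 11.06 and 9.14 in *Cmah*-null mice, lower on every *Cmah*-null array. Its log2 fold change was -1.32 (SE 0.51, limma adjusted p 0.574), and -0.71 without *Cmah*-null replicate 3. *Gpx1*, the cytosolic and mitochondrial form, gave -0.57 (SE 0.35), and -0.17 without that array.

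Of 18 genes for sources of superoxide and peroxide none was called, and 7 were detected on no array, among them *Nox3*, the NADPH oxidase of the inner ear. Of 15 peroxins, which build the peroxisomes that hold catalase, only *Pex19* was called, with a log2 fold change of -0.61 (SE 0.14, limma adjusted p 0.416). This call ended without *Cmah*-null replicate 3, at -0.47. Of 15 regulators, *Mafg*, a small partner of Nrf2, had a log2 fold change of 0.84 (SE 0.21, limma adjusted p 0.449) and *Foxo1*, a factor known to act on *Sod2* and *Cat*, 0.82 (SE 0.23, limma adjusted p 0.479). *Ppargc1a*, the coactivator of mitochondrial genes and also 1 of the brown fat markers, had -0.65 (SE 0.26, limma adjusted p 0.580). It was not called without *Cmah*-null replicate 3, at -0.37. *Nfe2l2*, which encodes Nrf2, had -0.06 (SE 0.18) and its inhibitor *Keap1* 0.01 (SE 0.18). Of 11 Nrf2 target enzymes none was called, and their median was -0.06.

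**Figure D5:**
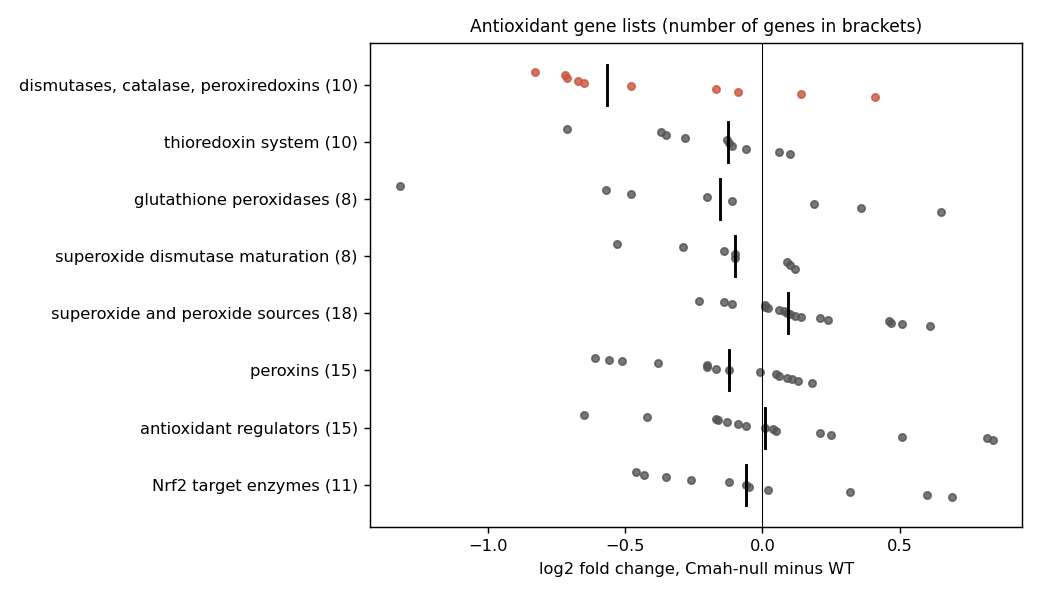
Log2 fold change of *Cmah*-null minus WT (horizontal axis) of each gene, 1 point per gene by its brightest probe, in the members (red) and 7 related lists (grey), with a bar at the median of each list. The member median lies at -0.57 and the medians of the other lists between -0.15 and 0.10, whereas without *Cmah*-null replicate 3 (not drawn) the members lie at -0.09 and the other lists between -0.19 and 0.11.

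The promoters of the members were searched for the core of the antioxidant response element, TGACNNNGC, on both strands. RefSeq promoter windows of GRCm38.p6, from 250 bases before to 50 bases after the start, were at hand for 8 members. The motif was held by 14.0% of 27025 genes and by 4 of the 9 Nrf2 target enzymes with a window (44.4%). Of the 8 members 2 held it (25.0%), *Prdx1* and *Sod1*. The 250 bases before the start of both are printed, on the + strand, with the match in capitals, which in both reads on the opposite strand as the motif.
Prdx1 (chr4:116685349-116685598): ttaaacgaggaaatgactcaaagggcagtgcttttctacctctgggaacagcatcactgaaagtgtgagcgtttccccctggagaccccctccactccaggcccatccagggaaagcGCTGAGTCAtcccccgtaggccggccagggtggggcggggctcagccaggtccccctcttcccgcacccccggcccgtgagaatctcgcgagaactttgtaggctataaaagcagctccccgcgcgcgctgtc
Sod1 (chr16:90220512-90220761): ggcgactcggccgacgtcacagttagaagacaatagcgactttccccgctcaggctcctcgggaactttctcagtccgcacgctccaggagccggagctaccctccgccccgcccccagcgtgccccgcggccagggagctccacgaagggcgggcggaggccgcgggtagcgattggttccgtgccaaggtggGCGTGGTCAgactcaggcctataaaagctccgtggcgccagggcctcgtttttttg
Over all 6 arrays *Prdx1* spanned 11.91 to 14.26 and *Sod1* 13.20 to 13.49. Apart from *Cmah*-null replicate 3, *Prdx1* spanned 13.86 to 14.26 and *Sod1* 13.28 to 13.49. The match is a description of these windows and not a site of binding.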

How the data were processed

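Cochlear RNA of 3 WT and 3 *Cmah*-null mice was measured on 1 array each. The authors deposited intensity values (average bead signal, without normalization), bead numbers and, for every probe, a detection p-value, and log2 values that equalled quantile-normalized log2 signals to within 5e-07. Columns of the log2 table name the second group "old" with the sample number, and were matched to *Cmah*-null as the only other group. The authors' fold change, LPE statistic and adjusted p columns hold their own comparison and were not used, nor were 18 further columns of per-sample values. The genome build of the probes is not given in the sources used here.

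Genotypes were compared on the log2 values by limma's moderated test (version 3.58.1, R 4.3.3), two-sided and without covariates, and p-values were adjusted by Benjamini-Hochberg across 25697 probes, after the script was tested on simulated data. Called means 1.5-fold with an unadjusted p under 0.05. The brightest probe stood for a gene. Members, lists and tests were chosen with earlier results of these data known. All members were named, and from each related list the called genes and *Ccs*, *Srxn1*, *Txn2*, *Txnrd2*, *Sirt3*, *Nox3*, *Gpx1*, *Nfe2l2* and *Keap1*. Of the called respiratory chain subunits only those with the largest decreases and *Cox6b2* were named. From marker lists only genes that a result turned on were named. Fat, bone and cartilage, epidermis, neuron, myelin and cochlear support markers were also summarised. The alternatives were neqc (offset 16), median scaling, only probes detected on 3 or more arrays, a replicate block, a bead set block (median of beads under 36 or above), a variance prior with trend and robust, *Cmah*-null replicates 1 and 2 averaged, other probes per gene, and each array left out. Python 3.11.15 and matplotlib 3.10.9 drew the figures. The number of arrays limits the precision.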

Additional observations from a re-analysis of the deposited data

How the results depend on the processing

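Under all alternatives run, *Sod2*, *Sod3*, *Prdx3* and the brightest probe of *Prdx2* kept their direction, as did *Prdx6* except relative to the shift of median scaling (-0.07 and -0.09 for its probes). *Sod2* ranged from -0.91 to -0.22 in log2 fold change, with a limma adjusted p from 0.114 to 0.960. Median scaling reversed *Sod1* (0.41), *Cat* (0.26), both *Prdx5* probes (0.03 for ILMN_1239765, 0.22 for ILMN_2637233) and 2 *Prdx2* probes (0.28 for ILMN_2638354, 0.09 for ILMN_1242829). That scaling moved the median log2 fold change of the detected probes by 0.27, but single probes moved by unlike amounts. *Sod2* went from -0.72 to -0.22 while the dim *Sod3* stayed at 0.41, so 1 shift does not suit every probe. Relative to the median shift, *Sod1* (0.14) and ILMN_2638354 (0.01) were above 0 and the other reversed probes between -0.25 and -0.01. Leaving out *Cmah*-null replicate 3 reversed *Prdx1* (-1.06 to 0.07 over the arrays left out), *Prdx4* (-1.11 to 0.02), *Prdx2* at ILMN_2638354 (-0.30 to 0.26) and *Prdx5* at ILMN_2637233 (-0.37 to 0.15), and leaving out WT replicate 1 reversed *Cat* (-0.38 to 0.03). The median of the members was -0.07 with median scaling, -0.34 relative to the shift of detected probes, and -0.74 to -0.09 with 1 array left out. *Cmah*-null replicates 1 and 2 were close to each other, and with these averaged the median was -0.72 and *Sod2* (-0.78) was still called. The mitochondrial difference stayed negative in all alternatives run, from -0.87 to -0.43 with 1 array left out. Of all probes, 697 were called, against 1482 under neqc, 2488 under median scaling, 1728 when the bead set was a block and 429 to 1037 with 1 array left out (429 without WT replicate 2). At an adjusted p under 0.05 the bead set block gave 3 probes and every other setting 0. Of the members, 4 were called with the bead set as a block, 0 with median scaling and 0 to 1 with 1 array left out, *Sod3* in place of *Sod2* without WT replicate 1 and none without WT replicate 2 or *Cmah*-null replicate 3. The causes were not tested. With the replicate number as a block, *Prdx3* joined *Sod2* and 2 members were called. Arrays of the same number did not deviate together (correlations of 0.02, -0.17 and 0.01 over 12410 probes). *Cmah*-null replicate 3 stood far from the other *Cmah*-null arrays and sets most of their deviations, so this check is weak and cannot exclude a pairing. Signal over background limits *Prdx6*, *Sod3* and the second *Prdx1* probe.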

Other observations

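Marker lists of other tissues varied between the arrays. The 6 epidermis markers on the array had a mean log2 signal of 11.01 and 11.54 in WT replicates 1 and 2, 12.78 in WT replicate 3 and 12.35 to 12.85 in *Cmah*-null mice. Their median log2 fold change was 0.90, or 0.50 to 1.45 with 1 array left out. The median log2 fold change was -0.52 for fat markers, -0.13 for bone and cartilage, -0.06 for neuron, -0.21 for myelin, 0.16 for cochlear support and lateral wall and 0.07 for hair cell markers. With 1 array left out, fat ranged from -0.82 to -0.33, bone and cartilage from -0.24 to 0.08 (without WT replicate 2), neuron from -0.11 to 0.01 (without *Cmah*-null replicate 3) and myelin from -0.46 to 0.29 (without WT replicate 1). WT replicate 3 lay with the *Cmah*-null arrays in epidermis and skeletal muscle markers as well as in the mitochondrial difference of the antioxidant enzymes.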
